A study of Mus musculus with 12 samples.

Results

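Livers of mice that carried a myeloid deletion of S1pr1 were compared with livers of littermates without it, all on a diet high in cholesterol, fat and fructose, called FFC. The comparison used 6 of the 12 bulk RNA-sequencing libraries of the study, 3 of each genotype, chosen by their genotype and diet labels. Knockout (KO) mice had both S1pr1 alleles flanked by loxP sites (S1pr1 loxp/loxp) and 1 copy of Lyz2-Cre. The littermates called wild type (WT) were also S1pr1 loxp/loxp but had no Cre, so the loxP sites were common to both groups and the Cre allele was not. Mice received this diet (AIN-76A Western Diet) for 24 weeks, starting at 12 weeks of age. The other 6 libraries came from KO and WT mice on chow (CD), again 3 of each, and were used side by side with the FFC comparison. Whether the libraries of a group are separate mice is not stated, and p-values here measure the spread between libraries, which may be technical.

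S1pr1 encodes a G protein-coupled receptor for sphingosine 1-phosphate, a lipid mediator that guides the movement of immune cells between blood, lymph and tissue. Lyz2-Cre is driven from the lysozyme M locus and recombines loxP sites in monocytes, macrophages and neutrophils, which are a small fraction of the cells in a liver. In a fatty, inflamed liver the resident macrophages (Kupffer cells) are partly replaced by cells that arise from blood monocytes, some of which take on a lipid-associated program with Trem2, Gpnmb and Spp1. Diets of this kind are used in mice to produce steatohepatitis.

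The WT FFC libraries (replicates 2, 3 and 4) held 28415409 to 31154930 counts and the KO FFC libraries (replicates 1, 4 and 7) held 25773607 to 27652530. Levels are given as CPM, read counts relative to library size, after scaling by the trimmed mean of M-values, and per-library levels are listed in the replicate order just given. Differences are log2 values, KO minus WT, with a standard error (SE). A gene was called when its edgeR p-value, adjusted over all tested genes, was under 0.05. The first principal component of the 6 libraries (34.3% of the variance) placed the KO libraries at 3.19, 38.2 and 25.9 and the WT libraries at -27.8, -12.4 and -27.1, so KO replicate 1 lay nearest to the WT libraries. In all 12 libraries 4 Y-linked genes had at least 164 counts each and Xist had at most 7. Albumin, the marker of hepatocytes, stood at 71501, 59294 and 79118 CPM in WT and 79617, 98330.00 and 83341 CPM in KO libraries, which matches the liver label. Apart from Cfd and Adrb3, which other cells also express, the adipose markers had too few counts to be tested. Exocrine pancreas and skeletal muscle had 2 and 1 tested markers.

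S1pr1 itself was counted in every library (ENSMUSG00000045092, chromosome 3, 115710433 to 115715055 in mm10). It stood at 39.4, 46.1 and 34.2 CPM in WT and at 41.05, 41.6 and 45.8 CPM in KO livers (log2 difference 0.10, SE 0.13, edgeR adjusted p = 0.742). The groups overlapped and the gene did not pass the test. Counts per gene cover cells with and without Cre together and do not resolve the floxed sequence, so they are a partial check of the labels. Lyz2, the gene whose locus drives the Cre and a product of macrophages and neutrophils, stood at 213, 191 and 218 CPM in WT and 107, 186 and 145 CPM in KO livers (log2 difference -0.51, SE 0.17, edgeR adjusted p = 0.223). Every KO level lay under the WT levels, yet the difference did not pass the test. Of all tested genes 21.3% had groups that did not overlap, in either direction. On chow the Lyz2 levels of the genotypes overlapped (log2 difference -0.14, SE 0.23, edgeR adjusted p = 0.800). Only KO mice carried the Cre allele of this locus. An effect of that allele on Lyz2 counts and a change in macrophages cannot be told apart. Of 13 tested genes of sphingosine 1-phosphate receptors, synthesis, transport and breakdown, 0 were called. Their median log2 difference was 0.05, beside -0.01 for all tested genes. The lowest p among them belonged to Apom, the plasma carrier of sphingosine 1-phosphate, at 90.2, 83.8 and 104 CPM in WT and 114, 133 and 156 CPM in KO livers (log2 difference 0.54, SE 0.13, edgeR adjusted p = 0.145).

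Of 15821 genes tested on FFC, 17 were called (0.107%), 7 higher and 10 lower in KO livers. For all 17 the 3 KO levels did not overlap the 3 WT levels, as was true of 21.3% of all tested genes. At an unadjusted p of at most 0.05 there were 2402 genes (15.2%), 1197 of them higher (7.57%) and 1205 lower (7.62%). The number called depended on the tool, since DESeq2 called 335 of 14338 genes (2.34%), all 17 among them. It also depended on single libraries. It was 55, 41 and 32 without KO replicate 1, 4 or 7, and 11, 12 and 2 without WT replicate 2, 3 or 4. Of the 17 genes 13, 17 and 10 stayed called without those KO libraries, and 6, 5 and 2 without those WT libraries. When the chow libraries were added to the fit, 3 genes were called, 1 of them (Timd4) among the 17. Every one of the 17 kept its sign in each alternative that could test it. The alternatives reuse these libraries, and the levels of the 17 genes did not overlap. A change of sign was therefore hardly possible, and its absence is no separate support.

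**Figure D1:**
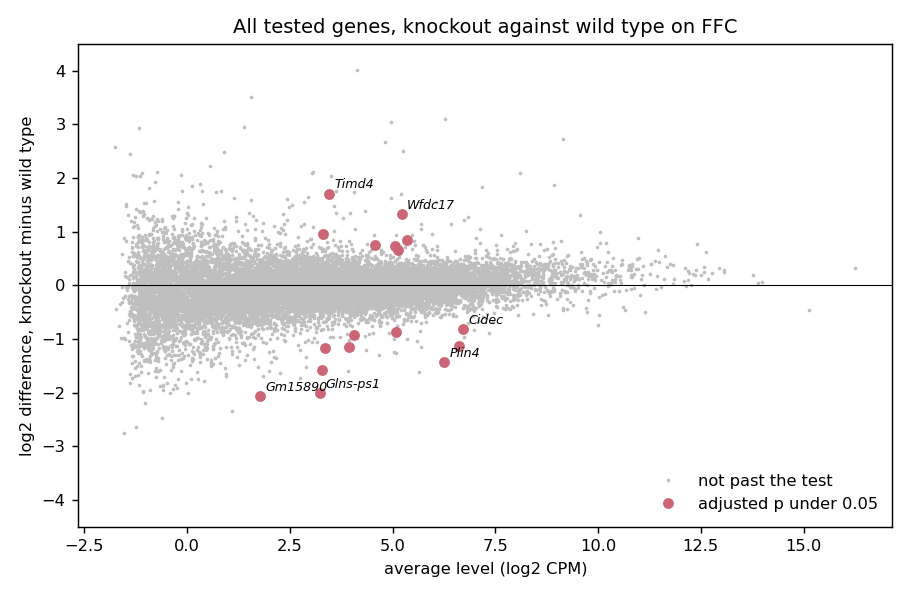
Log2 difference of KO minus WT livers on FFC (vertical axis) against the average level in log2 CPM (horizontal axis) for the 15821 tested genes, 1 point per gene. Large points are the 17 called genes, 7 above and 10 below 0, and 6 of them are labelled.

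**Figure D2:**
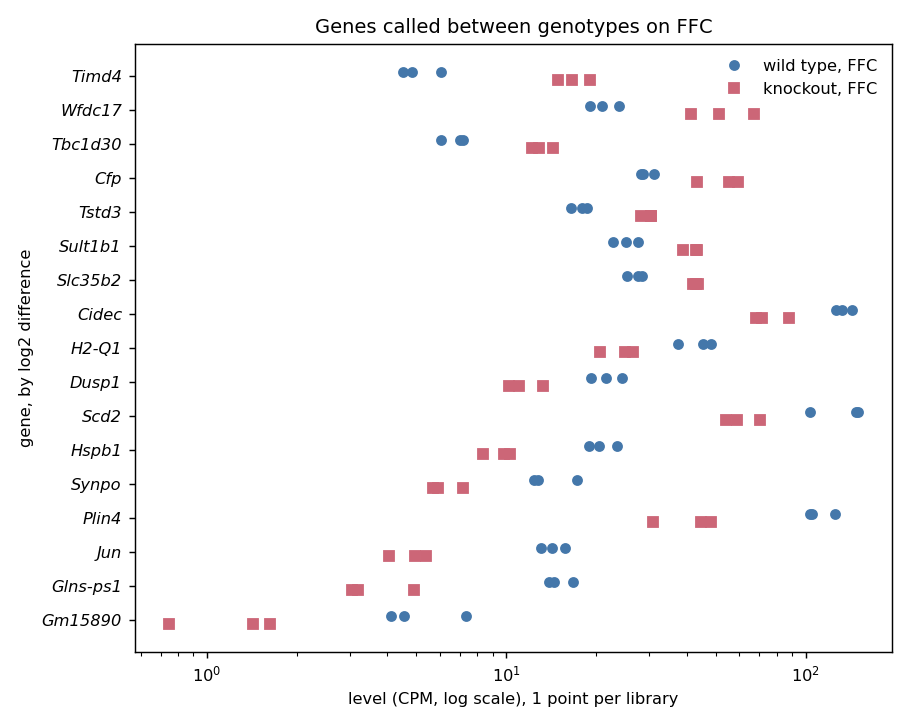
Levels of the 17 called genes in each FFC library, in CPM on a logarithmic axis, with circles for WT and squares for KO libraries and genes ordered by log2 difference. The symbols of the 2 genotypes do not overlap for any of the 17 genes.

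Genes of resident macrophages stood higher in KO livers. Timd4 encodes a phosphatidylserine receptor of resident macrophages that takes part in the uptake of dying cells (ENSMUSG00000055546, chromosome 11, 46810800 to 46844332). It was counted at 4.83, 6.06 and 4.52 CPM in WT and 16.6, 14.8 and 19.1 CPM in KO livers, a 3.28-fold rise (log2 difference 1.71, SE 0.17, edgeR adjusted p = 0.00324). It was called in each of the 14 alternatives. Marco, a scavenger receptor of Kupffer cells, had levels of 6.77, 5.44 and 10.6 CPM in WT and 30.4, 56.6 and 58.9 CPM in KO livers (log2 difference 2.68, SE 0.35, edgeR adjusted p = 0.0955). The lowest KO level was well over the highest WT level, while the gene did not pass the adjusted test. Vsig4, the complement receptor of Kupffer cells, stood at 51.6, 47.5 and 57.1 CPM and 72.03, 103 and 72.5 CPM (log2 difference 0.66, SE 0.15, edgeR adjusted p = 0.126). Clec4f, a C-type lectin found on Kupffer cells, stood at 139, 147 and 172 CPM and 179, 196 and 214 CPM (log2 difference 0.36, SE 0.12, edgeR adjusted p = 0.209). Folr2, a folate receptor of resident macrophages, stood at 18.3, 21.3 and 25.02 CPM and 25.9, 42.1 and 31.6 CPM (log2 difference 0.62, SE 0.18, edgeR adjusted p = 0.178). None of these 4 genes passed the adjusted test. Their groups did not overlap, as was true of 21.3% of all tested genes.

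Of the 14 tested Kupffer cell genes, 1 was called higher (Timd4) and 13 did not pass the test. All 14 had a positive log2 difference, with a median of 0.37 and a range of 0.08 to 2.68, and 8 had an unadjusted p of at most 0.05, all higher, against 7.57% of all tested genes. The number was 6 to 9 with single libraries left out and 5 in the fit of all 12 libraries. The summed level of the list was 923 to 1036 CPM in WT and 1216 to 1395 CPM in KO libraries. In whole liver, a change in the number of cells of a type and a change in the RNA per cell cannot be told apart.

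A pair of called genes outside the Kupffer list are also products of myeloid cells. Wfdc17, a small secreted protein made by macrophages (ENSMUSG00000069792, chromosome 11, 83703991 to 83706268), rose from 23.8, 20.8 and 18.96 CPM in WT to 41.5, 67.2 and 51.2 CPM in KO livers (log2 difference 1.33, SE 0.17, edgeR adjusted p = 0.0207). Cfp encodes properdin, the plasma protein that stabilises the alternative pathway C3 convertase (ENSMUSG00000001128, chromosome X, 20925454 to 20931555). It rose from 28.1, 28.5 and 31.1 CPM to 43.4, 59.5 and 55.3 CPM (log2 difference 0.85, SE 0.13, edgeR adjusted p = 0.0389). For both, replicate 1 was the lowest of the KO libraries, and still over every WT library. Among 16 general macrophage genes 0 were called and the median log2 difference was 0.13. At an unadjusted p of at most 0.05, 5 stood higher and 1 lower. The lower one was Lyz2, whose locus carries the Cre allele in KO mice only. Adgre1, which encodes the F4/80 antigen, stood at 38.7, 35.3 and 45.6 CPM in WT and 43.7, 86.8 and 70.7 CPM in KO livers (log2 difference 0.75, SE 0.23, edgeR adjusted p = 0.212). KO replicate 1 lay among the WT libraries for this gene. Aif1, a calcium-binding protein of macrophages, had levels of 11.2, 10.5 and 11.3 CPM and 14.7, 28.3 and 15.3 CPM (log2 difference 0.82, SE 0.23, edgeR adjusted p = 0.181).

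Genes of the lipid-associated macrophage program pointed the other way, without any passing the adjusted test. Of 12 tested members 11 had a negative log2 difference, the median was -0.55, and 5 stood lower at an unadjusted p of at most 0.05 (7.62% of all tested genes did). Gpnmb, which encodes a membrane protein of foamy macrophages, stood at 41.7, 27.8 and 38.8 CPM in WT and 24.5, 9.899 and 9.49 CPM in KO livers (log2 difference -1.30, SE 0.43, edgeR adjusted p = 0.266). Itgax, which encodes the integrin CD11c, stood at 13.97, 9.09 and 8.51 CPM and 6.82, 2.87 and 2.79 CPM (log2 difference -1.34, SE 0.37, edgeR adjusted p = 0.1896). Mmp12, the macrophage elastase, stood at 58.6, 39.1 and 40.5 CPM and 27.9, 18.2 and 12.5 CPM (log2 difference -1.24, SE 0.31, edgeR adjusted p = 0.184). Among the KO libraries, replicate 1 was nearest to WT for all 3 genes. Lipoprotein lipase, Lpl, stood at 99.1, 88.6 and 87.03 CPM and 64.4, 63.6 and 60.96 CPM (log2 difference -0.54, SE 0.10, edgeR adjusted p = 0.0955). Trem2, the lipid-sensing receptor after which these cells are often named, stood at 8.31, 6.74 and 8.62 CPM and 7.67, 2.87 and 4.45 CPM, and Spp1, osteopontin, at 219, 111 and 119 CPM and 169, 80.6 and 53.5 CPM. Both overlapped between genotypes (edgeR adjusted p = 0.338 and 0.683). The number of lower members was 8 without KO replicate 1 and 3 without KO replicate 4 or in the fit of all 12 libraries.

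**Figure D3:**
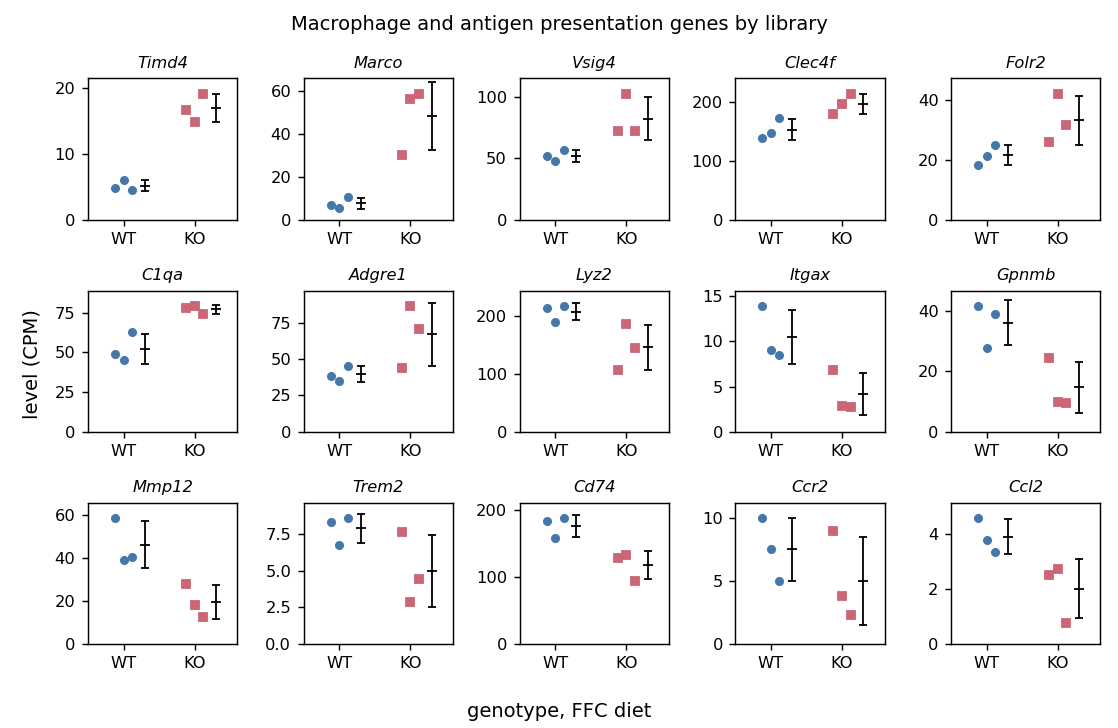
Levels in CPM of 15 macrophage, monocyte and antigen presentation genes in the 3 WT and 3 KO libraries on FFC, 1 point per library, with the mean and SD of each group beside the points. Every vertical axis starts at 0. Timd4 and Marco lie higher in all 3 KO libraries, and Itgax, Gpnmb and Mmp12 lie lower.

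Monocyte-derived and recruited cell genes showed no called member. Of 12 such genes 3 had a positive log2 difference and the median was -0.16. At an unadjusted p of at most 0.05, 1 stood higher and 0 lower. The higher one was Ms4a7, at 3.25, 2.91 and 3.41 CPM in WT and 4.32, 6.21 and 4.69 CPM in KO livers (log2 difference 0.67, SE 0.21, edgeR adjusted p = 0.196). Ccr2, the receptor for monocyte entry from blood, stood at 9.99, 7.48 and 4.998 CPM in WT and 8.94, 3.81 and 2.29 CPM in KO livers (log2 difference -0.58, SE 0.52, edgeR adjusted p = 0.645), with overlapping groups. Without KO replicate 1, 5 of the 12 genes stood lower at an unadjusted p of at most 0.05, against 0 with it. Of 7 genes of antigen presentation by MHC class II, all 7 had a negative log2 difference (median -0.56) and 0 were called. At an unadjusted p of at most 0.05, 4 stood lower (7.62% of all tested genes did). In the fit of all 12 libraries 0 of the 7 stood lower at that threshold. The invariant chain gene Cd74 stood at 183, 158 and 188 CPM in WT and 128, 132 and 93.7 CPM in KO livers (log2 difference -0.58, SE 0.14, edgeR adjusted p = 0.143). Ciita, the master activator of these genes, stood at 4.73, 3.83 and 4.14 CPM and 3.199, 1.92 and 1.67 CPM (log2 difference -0.90, SE 0.27, edgeR adjusted p = 0.178).

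Of 20 tested chemokine and chemokine receptor genes, 16 had a negative and 4 a positive log2 difference. Of the 20, 0 were called, and the median log2 difference was -0.51. At an unadjusted p of at most 0.05, 8 stood lower and 1 higher, against 7.62% and 7.57% of all tested genes. The number of lower members was 4 without WT replicate 2 and 1 in the fit of all 12 libraries. Ccl2, the main ligand of the receptor Ccr2, stood at 4.601, 3.802 and 3.34 CPM in WT and 2.51, 2.75 and 0.775 CPM in KO livers (log2 difference -0.96, SE 0.38, edgeR adjusted p = 0.274). The member that stood higher was Cxcl13, a chemokine that draws B cells, at 0.164, 0.433 and 1.21 CPM in WT and 2.51, 6.52 and 4.92 CPM in KO livers (log2 difference 2.96, SE 0.62, edgeR adjusted p = 0.143). Its levels did not overlap, as was true of 21.3% of all tested genes, and its counts in the WT libraries were few. Of 16 tested cytokine and inflammasome genes 9 had a negative log2 difference and the median was -0.14. At the same unadjusted threshold 3 stood lower (Vcam1, Tnfaip3 and, named after its values were seen, Nfkb1) and 2 higher (Il1b and Il18), and 0 were called. Without WT replicate 4 the number lower was 0, and without WT replicate 2, WT replicate 4 or KO replicate 4 the number higher was 1. Vcam1, an adhesion molecule that binds leukocytes, stood at 52.4, 31.2 and 46.4 CPM in WT and 33.8, 24.8 and 18.6 CPM in KO livers (log2 difference -0.75, SE 0.26, edgeR adjusted p = 0.249). Il1b, a cytokine of the inflammasome pathway, stood at 2.04, 3.74 and 4.07 CPM and 5.24, 9.702 and 5.27 CPM (log2 difference 1.04, SE 0.31, edgeR adjusted p = 0.192). Tnf, the inflammatory cytokine TNF, stood at 0.427, 0.371 and 0.6204 CPM and 0.655, 1.22 and 0.6197 CPM, and its groups overlapped.

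Stress-response genes were 3 of the 10 that fell. Jun, a subunit of the AP-1 transcription factor (ENSMUSG00000052684, chromosome 4, 95049034 to 95052222), fell from 13.1, 14.2 and 15.7 CPM in WT to 4.93, 5.38 and 4.07 CPM in KO livers (log2 difference -1.58, SE 0.16, edgeR adjusted p = 0.00333). Dusp1, a phosphatase that switches off MAP kinases (ENSMUSG00000024190, chromosome 17, 26505590 to 26508519), fell from 21.6, 19.2 and 24.4 CPM to 13.3, 10.2 and 11.04 CPM (log2 difference -0.92, SE 0.15, edgeR adjusted p = 0.0416). Hspb1, a small heat shock protein that binds unfolded proteins (ENSMUSG00000004951, chromosome 5, 135887919 to 135889563), fell from 23.5, 18.9 and 20.3 CPM to 9.79, 8.33 and 10.3 CPM (log2 difference -1.14, SE 0.14, edgeR adjusted p = 0.0141). In each case the highest KO level was clearly under the lowest WT level. An antisense RNA gene, Junos, overlaps Jun and was counted at 1.22, 1.95 and 1.03 CPM in WT and 1.503, 1.41 and 0.9295 CPM in KO livers. Hspb1 has a pseudogene copy, Hsp25-ps1, whose counts moved the same way (log2 difference -1.46), so reads may be split between them.

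The 250 bases before the start sites of these 3 genes are shown because heat shock and growth-signal factors are known to act through short motifs there. They come from RefSeq (GRCm38.p6), 5′ to 3′ on the strand of the gene, with matches to TGACNTCA (the cAMP response element and the related AP-1 site of Jun) and to GAANNTTC (the core of a heat shock element) in capitals. Both strands were searched, and no match to one motif overlapped a match to the other.
Jun, chr4:95052223-95052472, minus strand: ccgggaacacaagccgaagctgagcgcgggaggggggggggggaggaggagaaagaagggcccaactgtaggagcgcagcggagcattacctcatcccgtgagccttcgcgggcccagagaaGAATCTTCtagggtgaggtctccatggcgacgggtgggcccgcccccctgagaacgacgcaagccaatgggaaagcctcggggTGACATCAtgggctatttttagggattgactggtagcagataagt
Dusp1, chr17:26508473-26508722, minus strand: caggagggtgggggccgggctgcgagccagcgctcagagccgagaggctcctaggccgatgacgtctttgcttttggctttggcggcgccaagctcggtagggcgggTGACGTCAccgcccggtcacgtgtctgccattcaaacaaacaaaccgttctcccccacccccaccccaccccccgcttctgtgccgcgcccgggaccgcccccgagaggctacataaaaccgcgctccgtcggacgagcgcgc
Hspb1, chr5:135887669-135887918, plus strand: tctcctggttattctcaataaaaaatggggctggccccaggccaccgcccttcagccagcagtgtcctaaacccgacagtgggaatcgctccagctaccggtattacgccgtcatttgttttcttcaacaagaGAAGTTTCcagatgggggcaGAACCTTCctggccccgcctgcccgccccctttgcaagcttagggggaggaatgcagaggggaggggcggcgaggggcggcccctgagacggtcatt
Jun and Dusp1 each held 1 match to TGACNTCA, starting at -45 and -143 from the start site, and Jun held 1 and Hspb1 held 2 matches to GAANNTTC. Of 32851 windows of this length in the table, 7.49% held the first motif and 6.69% the second. Of the 15 windows of 11 tested immediate early genes 3 (20%) held the first motif, and of the 14 windows of 9 tested heat shock genes 6 (42.9%) held the second. The 3 immediate early genes were Jun, Dusp1 and Klf6, and Jun and Dusp1 were shown because they were called. Heat shock genes are known for the second motif, so these shares do not bear on the genotype difference. A part of either motif in that difference was not tested.

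Of the 12 tested cytosolic heat shock genes, 1 was called lower (Hspb1), 8 stood lower at an unadjusted p of at most 0.05 (7.62% of all tested genes did) and the median log2 difference was -0.56. The count stayed between 7 and 9 when single libraries were left out and was 5 in the fit of all 12 libraries. Hsp90ab1, the constitutive cytosolic HSP90, stood at 1443, 1112 and 1134 CPM in WT and 809, 773 and 938 CPM in KO livers (log2 difference -0.55, SE 0.14, edgeR adjusted p = 0.149). Dnajb1, a co-chaperone of HSP70, stood at 28.5, 25.7 and 26.6 CPM and 13.95, 21.9 and 18.9 CPM (log2 difference -0.56, SE 0.15, edgeR adjusted p = 0.162). Bag3, another HSP70 partner, stood at 24.1, 22.4 and 20.6 CPM and 14.4, 17.99 and 13.01 CPM (log2 difference -0.57, SE 0.14, edgeR adjusted p = 0.149). Of 14 immediate early genes 2 were called lower (Jun and Dusp1), and 5 stood lower at an unadjusted p of at most 0.05 (2 in the fit of all 12). Of all tested genes 0.107% were called in either direction, and 7.62% stood lower at that threshold. The median of the immediate early genes was -0.32 (-0.73 without KO replicate 1). Klf6 had levels of 25.4, 20.8 and 20.5 CPM and 15.1, 15.6 and 10.2 CPM (log2 difference -0.71, SE 0.17, edgeR adjusted p = 0.1397), and the stress factor Atf3 had 6.15, 7.29 and 5.34 CPM and 3.66, 3.97 and 2.401 CPM (log2 difference -0.91, SE 0.23, edgeR adjusted p = 0.147). The labels give no time of collection. Among 15 circadian clock genes 4 stood lower and 0 higher at an unadjusted p of at most 0.05, including Per1 at 45.8, 30.6 and 40.8 CPM and 21.5, 12.4 and 29.3 CPM, and their part in the result for stress genes was not tested. The number of lower clock genes was 1 without WT replicate 2, WT replicate 4 or KO replicate 1, and 2 without KO replicate 4 or in the fit of all 12.

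A pair of lipid droplet genes and a fatty acid desaturase gene were also among the called genes that fell. Plin4, a lipid droplet coat protein (ENSMUSG00000002831, chromosome 17, 56100591 to 56109803), fell from 105, 104 and 126 CPM in WT to 44.7, 30.8 and 48.3 CPM in KO livers (log2 difference -1.43, SE 0.16, edgeR adjusted p = 0.00972). Its neighbour Hdgfrp2, which overlaps it, stood at 18.96, 17.7 and 22.5 CPM and 22.5, 16.3 and 22.2 CPM. Cidec, which promotes the fusion and growth of lipid droplets (ENSMUSG00000030278, chromosome 6, 113424634 to 113435760), fell from 142, 133 and 126 CPM to 87.8, 68.5 and 71.3 CPM (log2 difference -0.82, SE 0.12, edgeR adjusted p = 0.0389). Of 16 tested lipid droplet genes, these 2 were called lower and 14 did not pass the test. The median log2 difference of the list was -0.09, and 6 of the 16 had a positive one. At an unadjusted p of at most 0.05, 4 stood lower and 0 higher. Without WT replicate 4, or in the fit of all 12 libraries, the number lower was 2. Of all tested genes 0.107% were called in either direction, and 7.62% stood lower at the unadjusted threshold.

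Scd2, which introduces a double bond into saturated fatty acids (ENSMUSG00000025203, chromosome 19, 44293676 to 44306864), fell from 104, 149.5 and 147 CPM in WT to 59.1, 54.1 and 70.5 CPM in KO livers (log2 difference -1.12, SE 0.16, edgeR adjusted p = 0.0318). Its paralogs, which lie beside it on chromosome 19 and could share reads with it, also stood lower in every KO library. The main hepatic form, Scd1, stood at 37637, 46698 and 41265 CPM and 27554, 35553 and 27863 CPM (log2 difference -0.47, SE 0.15, edgeR adjusted p = 0.204). Scd3 and Scd4 had log2 differences of -1.61 and -1.60 (edgeR adjusted p = 0.0586 and 0.111), and none of the 3 paralogs passed the test. Among 19 lipogenesis genes, a list that does not hold Scd2, 0 were called. At an unadjusted p of at most 0.05, 4 stood lower and 1 higher. Without WT replicate 3 or KO replicate 1 there were 2 lower and 2 higher, and without KO replicate 7 there were 3 and 3. Without KO replicate 4 there were 6 lower and 1 higher, and in the fit of all 12 libraries 1 lower and 2 higher. Fasn, fatty acid synthase, stood at 385, 409 and 425 CPM and 278, 345 and 215 CPM (log2 difference -0.54, SE 0.16, edgeR adjusted p = 0.175). Genes of cholesterol synthesis (23 tested, median 0.06) and of cholesterol efflux and LXR response (15 tested, median 0.06) had 0 called members. Fatty acid oxidation and ketogenesis (20 tested, median -0.09) also had 0. In that last list Fgf21, a hormone released by the liver in fasting and stress, stood at 5.09, 3.93 and 3.21 CPM in WT and 1.31, 2.83 and 1.201 CPM in KO livers (log2 difference -1.20, SE 0.33, edgeR adjusted p = 0.165).

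Hepatocyte markers, bile acid genes and complement and coagulation genes had positive medians. Medians of other lists of liver metabolism had either sign. They were -0.10 for lipogenesis, -0.09 for lipid droplet and for fatty acid oxidation, and -0.01 for fatty acid uptake genes. They were 0.18 for xenobiotic metabolism, 0.11 for zonation and glutamine, and 0.04 for glucose and fructose metabolism genes. Both cholesterol lists had a median of 0.06. The 12 tested hepatocyte markers had a median log2 difference of 0.25 (0.26 on chow) and 0 called members. Serpina1c, an alpha-1-antitrypsin, came closest, at 1272, 1484 and 1444 CPM in WT and 2188, 2413 and 3177 CPM in KO livers (log2 difference 0.89, SE 0.15, edgeR adjusted p = 0.0586). It belongs to a family of near-identical genes, so its counts are uncertain. Of 18 bile acid genes 0 were called and 5 stood higher at an unadjusted p of at most 0.05, or 3 without WT replicate 2. Their median was 0.20. Slc10a1, which takes bile acids up from blood, stood at 311, 367 and 321 CPM and 467, 521 and 617 CPM (log2 difference 0.68, SE 0.13, edgeR adjusted p = 0.0968). Cyp8b1, which directs synthesis towards cholic acid, stood at 165, 239.6 and 203 CPM and 304, 406 and 509.96 CPM (log2 difference 1.01, SE 0.20, edgeR adjusted p = 0.105). Of 14 complement and coagulation genes, a list that does not hold the called gene Cfp, 0 were called and the median was 0.34. At an unadjusted p of at most 0.05, 6 stood higher, against 7.57% of all tested genes. C1qa, made chiefly by macrophages, stood at 49.2, 45.1 and 63.1 CPM and 77.9, 79.5 and 74.1 CPM (log2 difference 0.56, SE 0.13, edgeR adjusted p = 0.139), and F7, coagulation factor VII of hepatocytes, at 51.6, 56.4 and 65.04 CPM and 78.2, 75.8 and 85.8 CPM (log2 difference 0.47, SE 0.12, edgeR adjusted p = 0.144). The largest difference of the list was that of Cfd, the protease of the alternative pathway, named after its values were seen, at 1.68, 6.52 and 2.93 CPM and 8.32, 20.2 and 6.62 CPM (log2 difference 1.65, SE 0.68, edgeR adjusted p = 0.343). Cfd is also a product of fat cells. The summed level of the 2 tested adipose markers, Cfd and Adrb3, was 4.37 to 12.3 CPM in WT and 14.4 to 25.2 CPM in KO libraries, and its part in the result was not tested.

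A pair of called genes take part in sulfation or the supply of its substrate. Sult1b1, a cytosolic sulfotransferase (ENSMUSG00000029269, chromosome 5, 87513339 to 87538195), rose from 22.6, 25.04 and 27.5 CPM in WT to 42.97, 43.5 and 38.9 CPM in KO livers (log2 difference 0.74, SE 0.11, edgeR adjusted p = 0.0389). Slc35b2, which carries the sulfate donor PAPS into the Golgi (ENSMUSG00000037089, chromosome 17, 45563964 to 45567669), rose from 25.3, 27.4 and 28.4 CPM to 41.9, 43.6 and 43.1 CPM (log2 difference 0.66, SE 0.10, edgeR adjusted p = 0.0389). The levels within each genotype varied little for both genes.

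Sex-biased liver genes, which follow the pattern of growth hormone release, had differences of opposite sign, without any called member. All 12 tested male-biased genes had a positive log2 difference (median 0.76). At an unadjusted p of at most 0.05, 4 of them stood higher (7.57% of all tested genes did). The number higher was 2 without WT replicate 2, WT replicate 4 or KO replicate 4. It was 6 without WT replicate 3 and 7 without KO replicate 1. Cyp2d9, a male-biased cytochrome P450, stood at 438, 994 and 689.9 CPM and 1448, 1069 and 1721 CPM (log2 difference 1.00, SE 0.31, edgeR adjusted p = 0.223). The largest difference of the list rested on a single library, since Hsd3b5 stood at 0.329, 5.47 and 0.172 CPM in WT and 2.74, 7.86 and 88.7 CPM in KO livers (named after its values were seen). Of 8 tested female-biased genes, 3 stood lower and 0 higher at an unadjusted p of at most 0.05, and the median was -0.64. In the fit of all 12 libraries 1 stood lower. Cyp17a1, a steroid hydroxylase and lyase, stood at 48.9, 28.6 and 33.4 CPM in WT and 5.55, 12.96 and 11.7 CPM in KO livers (log2 difference -1.88, SE 0.36, edgeR adjusted p = 0.144).

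Genes of stellate and endothelial cells had 0 called members. Of 20 stellate cell and collagen genes 19 had a negative log2 difference, with a median of -0.39. At an unadjusted p of at most 0.05, 4 stood lower (7.62% of all tested genes did). Without KO replicate 1, 17 of the 20 did and the median was -0.95. Without any 1 of the other 5 libraries the number was 1 to 3, and in the fit of all 12 it was 2. Col1a1, the main chain of type I collagen, stood at 11.6, 6.83 and 8.48 CPM in WT and 20.7, 2.71 and 1.898 CPM in KO livers (log2 difference -0.09, SE 1.04, edgeR adjusted p = 0.977), so KO replicate 1 was the highest and the other KO libraries were the lowest of the 6. Timp1, an inhibitor of matrix proteases, stood at 4.17, 1.42 and 2.38 CPM and 3.7, 1.41 and 0.349 CPM (log2 difference -0.54, SE 0.79, edgeR adjusted p = 0.7898). Col4a1, a basement membrane collagen, stood at 73.9, 42.3 and 47.8 CPM and 38.8, 21.4 and 22.04 CPM (log2 difference -0.99, SE 0.31, edgeR adjusted p = 0.227). Of 13 endothelial genes 6 stood lower at an unadjusted p of at most 0.05 (median -0.30). The number lower was 3 without WT replicate 2, WT replicate 4 or KO replicate 4, or in the fit of all 12. It was 9 without KO replicate 1. Lyve1, a hyaluronan receptor of sinusoidal endothelium, stood at 35.3, 19.6 and 30.1 CPM and 14.6, 10.02 and 12.2 CPM (log2 difference -1.21, SE 0.22, edgeR adjusted p = 0.0965).

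**Figure D4:**
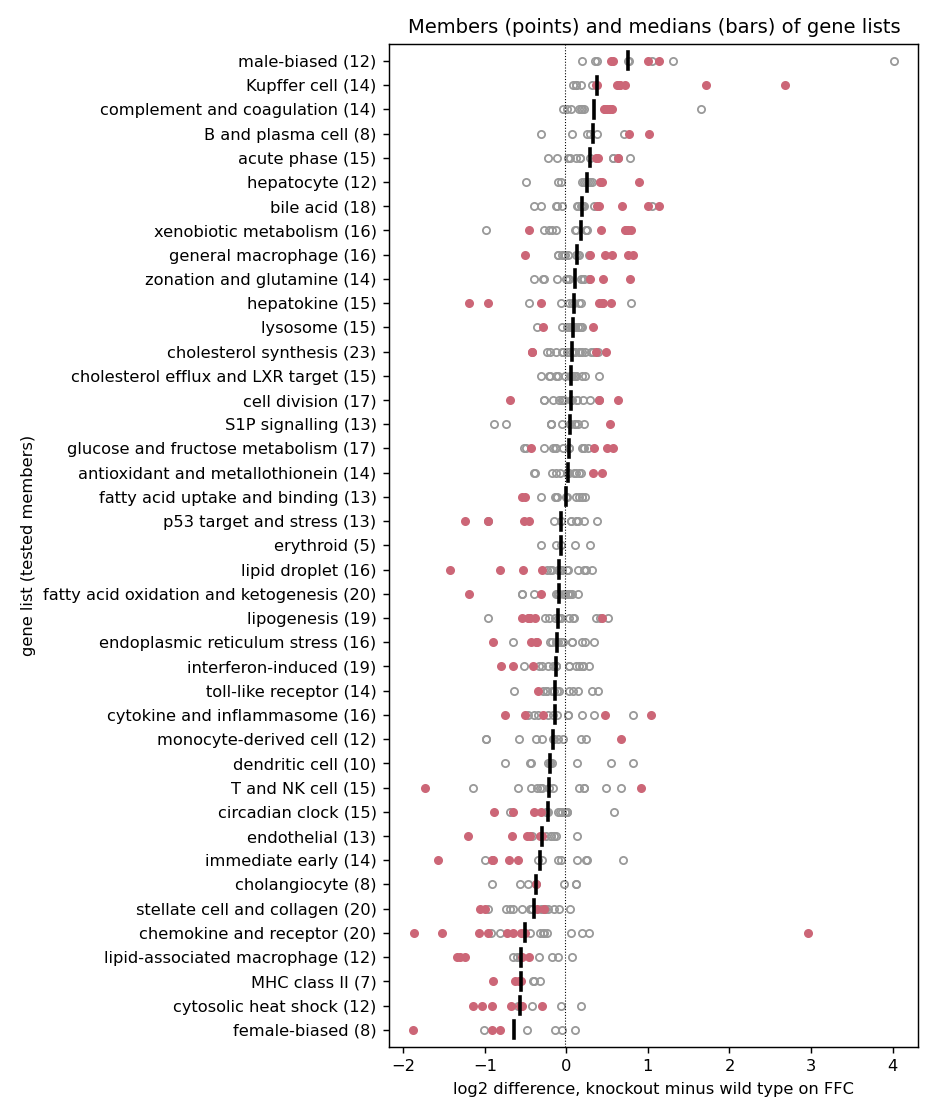
Log2 difference of KO minus WT livers on FFC for the tested members of each gene list with at least 5 tested members (number in brackets), 1 point per gene, filled where the unadjusted p was at most 0.05. The black bar is the median of the list and the dotted line the median of all tested genes. Kupffer cell genes lie to the right of the line, and MHC class II genes all lie to the left.

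The lists not described so far had 0 called members. Of 16 xenobiotic metabolism genes 4 stood higher and 1 lower at an unadjusted p of at most 0.05 (median 0.18), led by Cyp2a5, a cytochrome P450, at 704, 821 and 1042 CPM in WT and 1672, 1269 and 1521 CPM in KO livers (log2 difference 0.80, SE 0.16, edgeR adjusted p = 0.105). Among 17 genes of glucose and fructose metabolism 3 stood higher and 1 lower (median 0.04). Without WT replicate 3 the number higher was 1, and without KO replicate 1 it was 5, with a median of 0.20. Without KO replicate 4 there were 3 higher and 4 lower, without KO replicate 7 3 and 2, and without WT replicate 2 or 4 2 and 0. Khk, the kinase that starts fructose breakdown, stood at 351, 348 and 443 CPM and 569, 535 and 593 CPM (log2 difference 0.57, SE 0.13, edgeR adjusted p = 0.1301). It lay higher in every KO library on FFC and on chow alike (log2 difference 0.62 on chow, SE 0.23, edgeR adjusted p = 0.212). Its genotype by diet interaction was -0.04 (edgeR adjusted p = 0.959). Of 15 acute phase genes 3 stood higher and 0 lower (median 0.29). The number higher was 8 without KO replicate 7 and 0 in the fit of all 12 libraries. Orm1, an acute phase glycoprotein, stood at 692, 568 and 563 CPM and 981, 1105 and 732 CPM (log2 difference 0.63, SE 0.16, edgeR adjusted p = 0.149).

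Among other stress and immune lists, medians ran from -0.21 for T and NK cell genes to 0.33 for B and plasma cell genes, beside -0.01 for all tested genes. At an unadjusted p of at most 0.05, 7.62% of all tested genes stood lower and 7.57% higher. Endoplasmic reticulum stress genes (16 tested, median -0.12) had 4 lower and 0 higher members at that threshold. The number lower was 2 without WT replicate 2, WT replicate 4 or KO replicate 1, and 0 in the fit of all 12 libraries. The p53 target genes (13 tested, median -0.06) also had 4 lower and 0 higher members, and 2 lower in the fit of all 12. Gadd45b, a stress-induced growth arrest gene, stood at 2.23, 0.927 and 1.65 CPM and 0.925, 0.668 and 0.426 CPM (log2 difference -1.25, SE 0.42, edgeR adjusted p = 0.213), and Gdf15, a secreted stress hormone, at 2.83, 3.77 and 4.03 CPM and 2.35, 1.26 and 1.82 CPM (log2 difference -0.97, SE 0.28, edgeR adjusted p = 0.1703). Both lay lower in every KO library, but for Gadd45b the highest KO level (0.925 CPM) nearly met the lowest WT level (0.927 CPM). Such non-overlap held for 21.3% of all tested genes. Of 19 interferon-induced genes 3 stood lower and 0 higher (median -0.12), 5 stood lower without WT replicate 4, and 0 did in the fit of all 12. Stat2, which transmits the interferon signal, stood at 74.2, 64.5 and 63. CPM and 50.6, 48.6 and 52.4 CPM (log2 difference -0.41, SE 0.11, edgeR adjusted p = 0.152). The 15 tested T and NK cell genes had 1 higher and 1 lower member, and the 4 neutrophil and 10 dendritic cell genes had 0 in either direction. Of the 8 B and plasma cell genes 7 had a positive log2 difference, 2 stood higher (Igkc and Cd79b) and 0 lower. The number higher was 4 without WT replicate 3, 3 without KO replicate 1 and 1 without any 1 of the other 4 libraries. Igkc, the constant region of the kappa light chain of antibodies, stood at 8.41, 9.74 and 5.51 CPM in WT and 10.4, 23.4 and 14.1 CPM in KO livers (log2 difference 1.01, SE 0.32, edgeR adjusted p = 0.218).

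The remaining called genes belong to no list. Tbc1d30, a GTPase-activating protein for a Rab protein (ENSMUSG00000052302, chromosome 10, 121263824 to 121311189), rose from 7., 7.14 and 6.03 CPM in WT to 12.9, 12.1 and 14.3 CPM in KO livers (log2 difference 0.96, SE 0.15, edgeR adjusted p = 0.0389). Tstd3 (ENSMUSG00000028251, chromosome 4, 21757382 to 21767212) rose from 16.5, 18.6 and 17.9 CPM to 30.5, 30.5 and 28.3 CPM (log2 difference 0.75, SE 0.11, edgeR adjusted p = 0.0389). It overlaps Ccnc and Usp45, which had log2 differences of 0.26 and 0.01. Synpo, an actin-associated protein (ENSMUSG00000043079, chromosome 18, 60593973 to 60660142), fell from 17.2, 12.4 and 12.8 CPM to 7.17, 5.696 and 5.93 CPM (log2 difference -1.17, SE 0.18, edgeR adjusted p = 0.0389). H2-Q1, a non-classical MHC class I gene (ENSMUSG00000079507, chromosome 17, 35320405 to 35325099), fell from 45.2, 37.5 and 48.3 CPM to 24.9, 26.4 and 20.5 CPM (log2 difference -0.87, SE 0.13, edgeR adjusted p = 0.0389). Its neighbour H2-Q2 had a log2 difference of -1.42 (edgeR adjusted p = 0.0586), while those of H2-Q4, H2-Q7, H2-Q10, H2-K1 and H2-D1 lay between -0.12 and 0.15. These genes are close copies and may share reads.

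The last 2 called genes are a pseudogene and an antisense RNA, which fall outside the rule for named genes and are named because they complete the count. Glns-ps1, a processed pseudogene of glutamine synthetase (ENSMUSG00000082100, chromosome 11, 19720355 to 19721472), fell from 13.9, 14.4 and 16.6 CPM to 3.04, 3.18 and 4.92 CPM (log2 difference -2.01, SE 0.20, edgeR adjusted p = 0.00324). The parent gene Glul stood at 1218, 1288 and 1286 CPM in WT and 1269.9, 1396 and 1193 CPM in KO livers, and reads could pass between the copies. Gm15890 (ENSMUSG00000090105, chromosome 8, 94379237 to 94386972) fell from 4.54, 4.11 and 7.34 CPM to 1.43, 0.746 and 1.63 CPM (log2 difference -2.07, SE 0.32, edgeR adjusted p = 0.0389). It overlaps Herpud1, a gene of endoplasmic reticulum stress with 450.1, 382 and 483 CPM in WT and 262, 332 and 421 CPM in KO livers. Strand use in counting is not given in the sources used here, so reads of the overlapping genes cannot be told apart.

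The same genotypes on chow were compared in a separate fit, which shares no library with the FFC fit. Levels were scaled separately for each diet, so they are not compared between diets. The chow libraries varied more, with a biological coefficient of variation of 0.331 beside 0.172 on FFC. Of 14319 genes tested on chow 0 were called (0%), and 2283 had an unadjusted p of at most 0.05 (15.9%). DESeq2 called 394 on chow. Of the 17 genes called on FFC, 7 had the same sign on chow, and over the 14130 genes tested on both diets 50.8% did. On chow 6 of the 17 had an unadjusted p of at most 0.05. Wfdc17 (log2 difference 1.04 on chow), Cfp (0.85), Scd2 (-0.86) and Slc35b2 (0.55) had the same sign on both diets, and Hspb1 (0.96) and Cidec (1.28) had the opposite sign. None of the 6 was called on chow.

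Whether the genotype difference itself differed between diets was tested as an interaction in all 12 libraries. Of 16283 genes 8 passed (0.0491%), and of the 17 genes called on FFC 0 did. Timd4 stood at 5.37, 6.77 and 6.28 CPM in WT and 4.71, 8.13 and 7.51 CPM in KO livers on chow (log2 difference 0.14, SE 0.34), and its interaction had an edgeR adjusted p of 0.08396. Marco passed. On chow it stood at 7.38, 13.6 and 11.3 CPM in WT and 10.2, 13.6 and 7.85 CPM in KO livers (log2 difference -0.03, SE 0.31), and the difference on FFC was higher by 2.72 on the log2 scale (edgeR adjusted p = 0.0467). Cyp17a1 passed as well. On chow it stood at 3.98, 3.61 and 4.24 CPM and 4.03, 7.53 and 6.54 CPM (log2 difference 0.61, SE 0.37), and the interaction was -2.48 (edgeR adjusted p = 0.0467). Without single libraries the adjusted p of Marco ranged from 0.0145 to 0.196 and that of Cyp17a1 from 0.0159 to 0.200. Kupffer cell genes had a median log2 difference of 0.37 on FFC and 0.45 on chow, and lipid-associated macrophage genes -0.55 on FFC and 0.53 on chow (10 tested there). Gpnmb and Itgax, with log2 differences of -1.30 and -1.34 on FFC, were not among those 10. Trem2 and Mmp12 stood at no more than 1.25 and 1.38 CPM in any chow library. The difference between the FFC and chow medians was not tested.

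**Figure D5:**
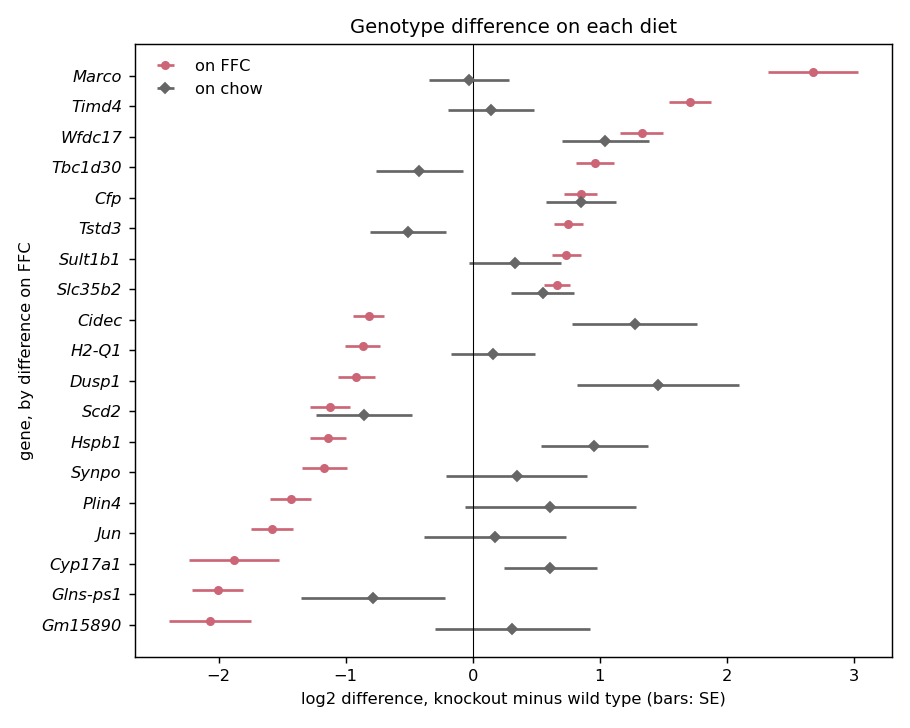
Log2 difference of KO minus WT livers on FFC (circles) and on chow (diamonds), with SE bars, for the 17 genes called on FFC and for Marco and Cyp17a1, whose interaction passed the test. Chow bars are wider for most genes, and Wfdc17, Cfp, Scd2 and Slc35b2 lie on the same side of 0 on both diets.

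The study's own selection used a looser threshold. Its design text gives 1442 genes at a p-value of at most 0.5, of which 505 passed a log fold change of 0.5 in either direction, and does not name the comparison they came from. With the filter it states (protein-coding, and an RPKM of 1 or more in any library), 10936 genes were tested here on the 6 FFC libraries. Of these, 7246 had an unadjusted p of at most 0.5 (66.3%), and 847 of them also passed the fold limit (7.75%). At an unadjusted p of at most 0.05 there were 1816 (16.6%), and 566 of them passed the fold limit. After adjustment 5 were called, all among the 17.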

How the data were processed

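Bulk liver RNA of 12 libraries was sequenced. The deposited values are raw counts of reads per gene in the Ensembl annotation. By their design text, the authors aligned with TopHat 2.1.0 to mm10 and counted with featureCounts 1.4.6. The Ensembl release and the strand setting are not given in the sources used here.

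The 6 FFC libraries were fitted alone with edgeR 4.0.16 (R 4.3.3), using filterByExpr by genotype, TMM scaling and robust quasi-likelihood tests, two-sided, with Benjamini-Hochberg adjustment over all tested genes and a threshold of 0.05. The chow libraries were fitted likewise, and the interaction was tested in all 12. Depth was 25773607 to 31154930 counts per FFC library, and the median SE of a log2 difference was 0.18 (quartiles 0.13 and 0.30). SE was derived from the log2 difference and its test statistic. The steps were tested on simulated data.

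The 45 gene lists (624 genes in the table) and the comparison were chosen with earlier results of these data known. Named genes were the called genes with established symbols, the lowest-p members of each list (at most 4), and 12 fixed genes. Alternatives used DESeq2 1.42.0, limma-voom (limma 3.58.1), other scaling, filters, thresholds, equal depth, offsets for GC content and length, all 12 libraries, and each library left out.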

Additional observations from a re-analysis of the deposited data

Results flagged for a closer look

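The genotype difference differed between the diets for 2 named genes, by the interaction test of edgeR in all 12 libraries. For Marco, a scavenger receptor of Kupffer cells, the log2 difference of knockout minus wild-type livers was 2.68 on FFC and -0.03 on chow, an interaction of 2.72 (adjusted p = 0.0467). For Cyp17a1, a steroid hydroxylase and lyase, it was -1.88 on FFC and 0.61 on chow, an interaction of -2.48 (adjusted p = 0.0467). The knockout FFC libraries had the 3 highest Marco and the 3 lowest Cyp17a1 levels of the 6 FFC libraries. Both interactions also passed with DESeq2 (adjusted p = 4.48e-05 and 1.20e-04). Marco lost its call without any 1 of 8 libraries (wild-type chow replicates 2, 3 and 4, knockout chow replicate 1, wild-type FFC replicates 2 and 3, and knockout FFC replicates 4 and 7), with an adjusted p of at most 0.196. Cyp17a1 lost it without any 1 of the FFC libraries or of the wild-type chow libraries, with an adjusted p of at most 0.200.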

How the results depend on the processing

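The FFC comparison called 17 genes, 7 higher and 10 lower in knockout livers. Median-ratio size factors (17), limma-voom (15), counts thinned to equal depth (20) and offsets for GC content and length (14) kept the number within 1.5 times. Without a filter on low counts it was 471 (223 higher, 248 lower), with DESeq2 335 (193 and 142), with the filter stated by the study 5 (2 and 3) and with all 12 libraries in the fit 3 (2 and 1). Leaving out single libraries gave 2 to 55 genes, 1 to 22 higher and 1 to 40 lower. At an adjusted p under 0.1 there were 54 (22 and 32), at an unadjusted p of at most 0.05 2402 (1197 and 1205), with a log2 difference of at least 0.5 as well 1022 (362 and 660), and at an unadjusted p of at most 0.5 10160 (4868 and 5292). The causes of these differences were not tested. No scaling moved the median of all genes by over 0.02. The chow comparison called 0 genes by edgeR, 394 by DESeq2 and 0 to 166 with single libraries left out. The interaction called 8, 405 by DESeq2 and 0 to 580 with single libraries left out. These alternatives for chow and the interaction were chosen after seeing the data. Of 1937 values of named genes under the alternatives, 3 reversed, all of Col1a1, whose log2 difference of -0.09 became 0.14 without wild-type replicate 2 and 0.33 and 0.38 without knockout replicates 4 and 7 (range -1.95 to 0.38 over the 6 libraries left out). No paired analysis was possible because the FFC groups share 1 replicate number. Depth limits what can be said of genes at a few counts, such as Cxcl13 and Tnf.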
